A study of Venturia canescens with 6 samples.

Results

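The most abundant transcripts were described in heads of female Venturia canescens collected at adult emergence. This species is a parasitic wasp whose females lay their eggs in moth larvae. Members were chosen by their read level: a gene model belongs to the group when its mean over all 6 libraries was at least 1000 CPM (counts scaled to the total of a library). Gene models numbered 2001 to 5500, or from 20001 on, were set aside. Of 22333 gene models in the table, 103 met this rule. The level itself is therefore what chose them, and levels, shares and ranks are given as a description without a test. The difference between the populations and the spread between pools were not used by the rule.

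The heads came from a sexual population, in which unfertilised eggs develop into sons, and an asexual population, in which unfertilised eggs develop into daughters. The labels give no strain name, age beyond emergence, or treatment for either population. Each of the 3 libraries per population was made from polyadenylated RNA of 30 pooled heads. Each reproductive mode is represented by 1 population, so that reproductive mode and any other difference between these populations cannot be told apart, and nothing in the labels says that pools were separate rearings. P-values then set the difference between the populations against the spread between these pools. Library totals were 9265064 to 13117716 counts.

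In a polyadenylated head library a small number of genes usually takes a large part of the reads. In insects these typically include the protein-synthesis machinery, polyadenylated transcripts of the mitochondrial genome, contractile proteins of the head muscles, light-sensing proteins of the eye, small binding proteins of the antenna, and cuticle proteins in newly emerged adults. Which of these the 103 members are was not determined: the gene models carry numbers only, and 0 of them matched a RefSeq gene table of the species. The head label could likewise not be checked against eye, antennal or neuronal markers. Members are therefore called here by their rank, where rank 1 has the highest mean CPM. Lengths of the models were not used, so a rank orders models by the reads they take and not by the number of RNA molecules.

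The 103 members are 0.461% of the gene models. Their share of all counts was 27.6%, 28.0% and 28.1% in sexual replicates 1, 2 and 3. It was 27.9%, 27.6% and 29.7% in asexual replicates 1, 2 and 3. The ranges of the populations overlapped, with means of 27.9% ± 0.251 in sexual and 28.4% ± 1.12 in asexual libraries (SD, n = 3). The highest share, in asexual replicate 3, went with high levels of the members ranked 1 and 2 in that library. Ranks 3 to 103 together took 20.2% of its counts, within the range of 19.8% to 21.2% of the other libraries.

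The members ranked 1 and 2 stood apart from all others. Gene model g1802, rank 1, had 44115, 37105 and 46522 CPM in sexual replicates 1 to 3 and 38580, 43130 and 54962 CPM in asexual replicates 1 to 3. The populations overlapped, with the highest value in asexual replicate 3 and the lowest in sexual replicate 2. Its means were 42581 ± 4892 CPM in sexual and 45557 ± 8457 CPM in asexual libraries (SD, n = 3), and the log2 fold change, asexual over sexual, was 0.11 ± 0.19 (SE, adjusted p = 0.753 by edgeR).

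Gene model g9582, rank 2, had 28380, 34340 and 36431 CPM in sexual replicates 1 to 3 and 28770, 30647 and 39403 CPM in asexual replicates 1 to 3. Its population means, 33050 ± 4178 and 32940 ± 5675 CPM (SD, n = 3), were nearly equal, with a log2 fold change of 0.00 ± 0.18 (SE, adjusted p = 0.995 by edgeR). These 2 models took 6.73% to 9.44% of a library. Reads of rank 1 were 5.51 times and reads of rank 2 were 4.13 times those of gene model g8257, which held rank 3 with a mean of 7995 CPM.

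**Figure D1:**
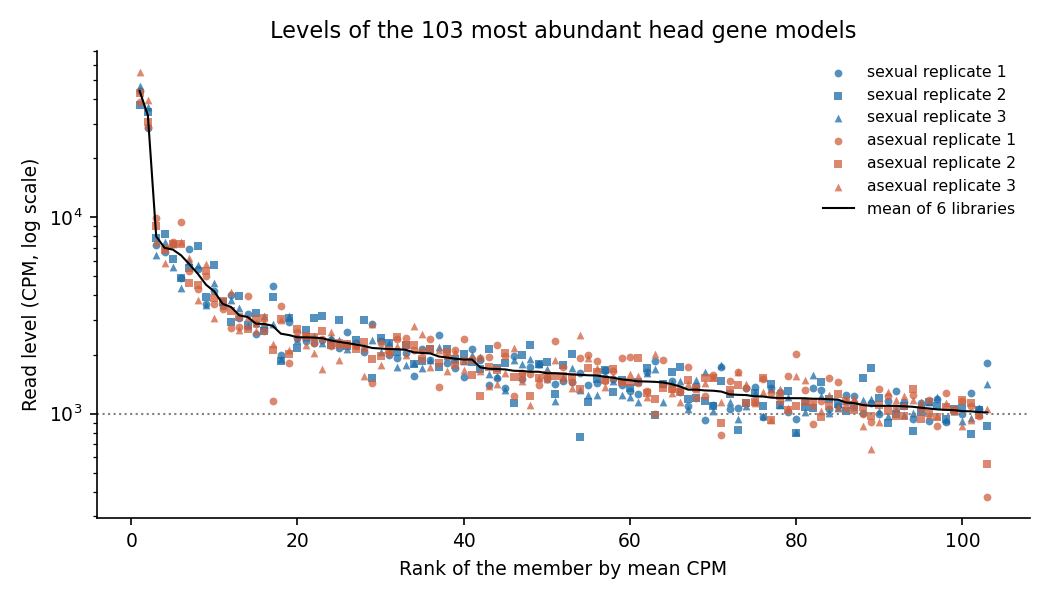
Read level in CPM (log scale) of each of the 103 members in each of the 6 libraries, against the member's rank by mean CPM; blue points are sexual and red points asexual libraries, the line is the mean of 6 libraries and the dotted line the cutoff of 1000 CPM. Ranks 1 and 2 lie near 44069 and 32995 CPM, and the level then falls to 7995 CPM at rank 3 and to 1014 CPM at rank 103.

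Below rank 2 the levels declined gradually. A mean of at least 5000 CPM was reached by 8 members, 28 members lay between 2000 and 5000 CPM, and 67 lay between 1000 and 2000 CPM. The median member had 1596 CPM. The 15 most abundant members held 50% of the members' summed CPM. Ranks 1 to 10 took 12.2% ± 0.416 of the counts in sexual and 12.8% ± 1.18 in asexual libraries, and ranks 11 to 103 took 15.7% ± 0.253 and 15.6% ± 0.322 (SD, n = 3).

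Near the threshold, membership could rest on 1 population. The mean of each population reached 1000 CPM for 92 members. For 5 members the sexual mean and for 6 members the asexual mean was below it, and 78 members had at least 1000 CPM in every library. Just inside the threshold, rank 102 had a mean of 1018 CPM and values from 968 to 1067 CPM, while rank 103 had a mean of 1014 CPM and values from 378 to 1806 CPM. The models just outside it had means of 999 and 998 CPM. Of models at 1000 CPM or more, 1 was set aside by its number, with 1048, 2799 and 1581 CPM in sexual and 748, 968 and 453 CPM in asexual replicates 1 to 3.

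The order of the members was well kept at the top and loose below. Places were counted among the 103 members only, so a model outside the group can lie above a member in 1 population or library. Ranks 1 and 2 held their places in all 6 libraries. A set of 8 models was among the 10 most abundant members of every library, while 14 models were in the top 10 of at least 1 library. For the top 50 these numbers were 36 and 70. The median member moved over 25 places between its best and its worst library, and 36 members moved over more than 30 places. Neighbouring members lie close in CPM below rank 10, so that small differences in level shift many places. Spearman's rho of the members' levels was 0.839 to 0.944 between libraries of the same population and 0.703 to 0.846 between populations, over 103 members that share library totals.

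The question of the comparison between populations was which transcripts differ between heads of asexual and sexual females. Among the 103 members, 19 were called (edgeR quasi-likelihood test, Benjamini-Hochberg adjusted p under 0.05 over all 11700 models tested), 12 higher and 7 lower in asexual females. All 103 passed the low-count filter. Over all tested models 12.9% were called, 6.79% as higher and 6.06% as lower. The corresponding shares among members were 18.4%, 11.7% and 6.80%, and 84 members were not called. Called members ranked 73, 80 and 94 had a sexual mean below 1000 CPM, and those ranked 71 and 89 an asexual mean below it. These members met the rule through the population where they were high, so the member share is not independent of the rule. The 1896 tested models of 100 to 1000 CPM had 13.5% called. Heads are mixtures of tissues, so that fewer cells of a type and less RNA per cell cannot be told apart in any of these differences.

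The distance between the member share and the background changed with the libraries used. Without sexual replicate 3, 7 members (6.80%) were called against 7.06% of all models, the 1 of the 6 fits with a library left out in which members were below the background. Without asexual replicate 2, 9 members (8.74%) were called against 7.26%, and without sexual replicate 1, 12 members (11.7%) against 11.2%. Leaving out each of the other 3 libraries gave 13.6% to 14.6% of members against 8.55% to 13.4% of all models. DESeq2 called 28 members (27.2%) against 13.1% of all models. Differences were small in size. Called members differed by 1.30-fold to 2.03-fold, with a median of 1.49-fold, and 1 of them exceeded 2-fold.

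As a group the members did not lean toward either population. The median log2 fold change was -0.01 over the members and 0.00 over all tested models, with 51 members above and 52 below 0. The median absolute log2 fold change was 0.21 in members and 0.19 in all tested models. The 3 libraries of a population did not overlap those of the other for 36 members (35.0%), including all 19 called members, against 32.3% of all tested models.

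**Figure D2:**
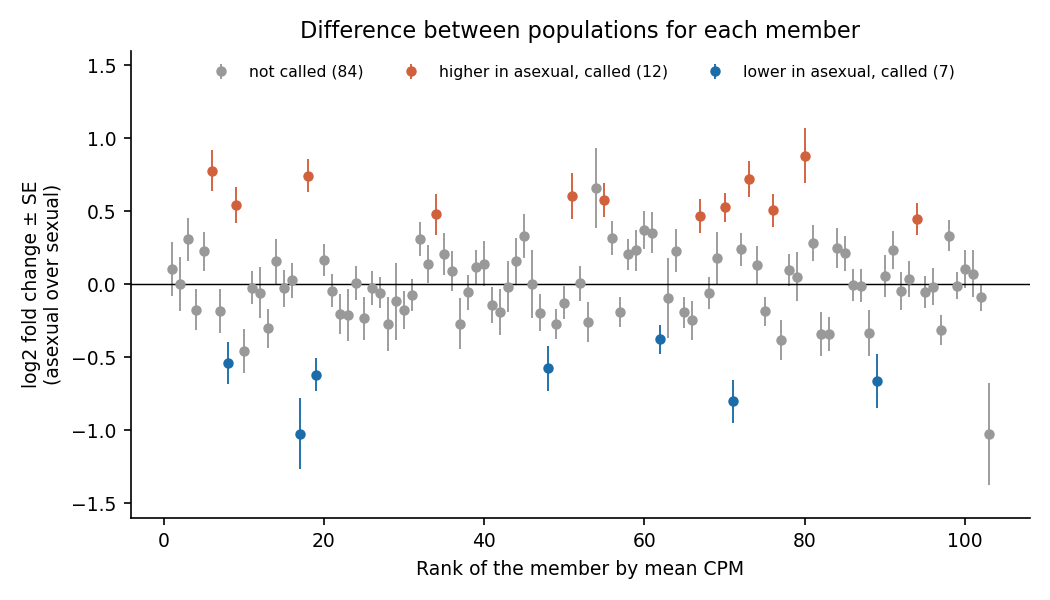
Log2 fold change, asexual over sexual, with its SE, of each of the 103 members against its rank by mean CPM. The 12 called members that were higher in asexual females lie between 0.44 and 0.88, the 7 that were lower lie between -1.02 and -0.38, and the 84 others are grey.

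Among ranks 1 to 10, 3 members were called, 2 with higher and 1 with lower levels in asexual females. Gene model g13126, rank 6, had 4923, 4906 and 4343 CPM in sexual replicates 1 to 3 and 9409, 7311 and 7501 CPM in asexual replicates 1 to 3. Every asexual library was above every sexual one, with a log2 fold change of 0.78 ± 0.14 (SE, adjusted p = 0.00514 by edgeR). This model was the ninth by its sexual mean and the fourth by its asexual mean. It was called in each of the 15 alternative fits, with an adjusted p of at most 0.0425.

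The member ranked 9 had 3599, 3907 and 3590 CPM in sexual and 5029, 5314 and 5763 CPM in asexual replicates 1 to 3, without overlap. Its log2 fold change was 0.54 ± 0.12 (SE, adjusted p = 0.0148 by edgeR). The call ended without sexual replicate 1 (adjusted p = 0.0632), sexual replicate 3 (0.0861) or asexual replicate 2 (0.0526) in edgeR. Conversely, the member ranked 8 had 5461, 7147 and 5736 CPM in sexual and 4292, 4519 and 3803 CPM in asexual replicates 1 to 3. It was lower in every asexual library, with a log2 fold change of -0.54 ± 0.14 (SE, adjusted p = 0.0338 by edgeR). Leaving out sexual replicate 2 or 3 or any asexual replicate ended this call, with edgeR adjusted p-values of 0.0685 to 0.0828.

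The other members of ranks 3 to 10 were not called. Rank 3 had 6415 to 7837 CPM in sexual and 7492 to 9956 CPM in asexual libraries, rank 4 had 6618 to 8184 and 5833 to 7010 CPM, and rank 7 had 5533 to 6928 and 4610 to 6188 CPM. The populations overlapped in each of these 3 members. Rank 5 had 5595 to 7283 CPM in sexual and 7286 to 7482 CPM in asexual libraries, which did not overlap, yet its log2 fold change of 0.22 ± 0.13 was not called (SE, adjusted p = 0.302 by edgeR). Rank 10 had 4191 to 5704 and 3073 to 3898 CPM, also without overlap, and a log2 fold change of -0.46 ± 0.15 (SE, adjusted p = 0.0740 by edgeR). It was called by DESeq2 (adjusted p = 0.00824) and by edgeR with no low-count filter (adjusted p = 0.0138).

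**Figure D3:**
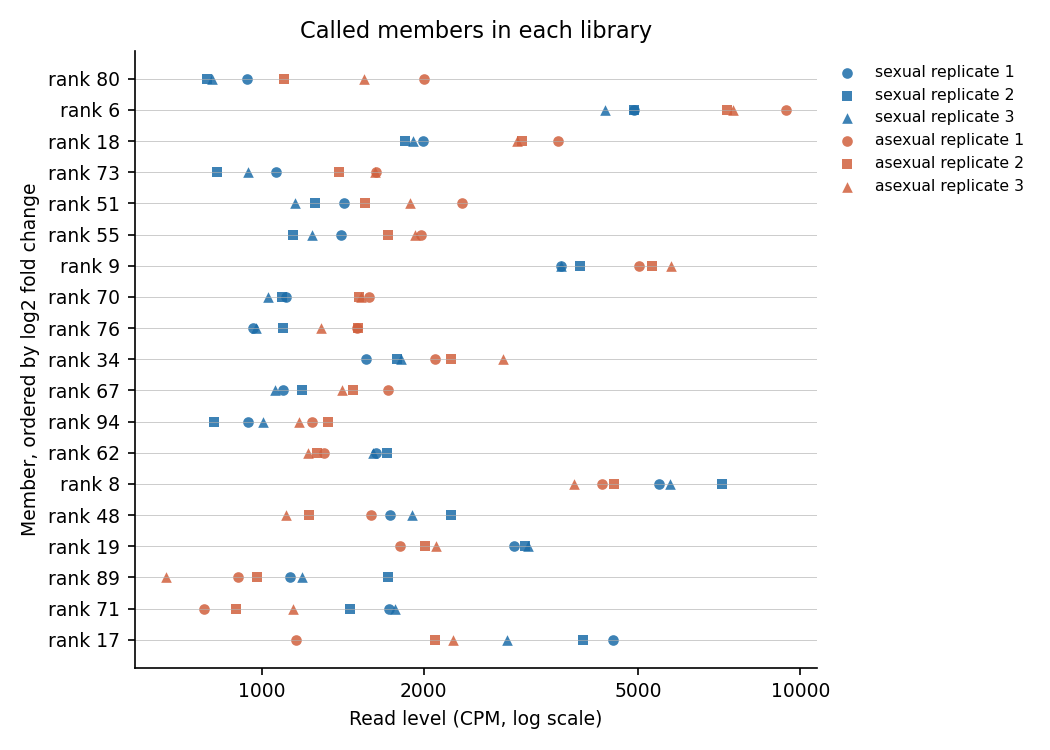
Read level in CPM (log scale) of the 19 called members in each library, ordered by log2 fold change from the lowest at the bottom; blue symbols are sexual and red symbols asexual libraries, and symbol shapes mark replicates. In each of the 19 members the 3 libraries of 1 population lie apart from the 3 of the other.

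The called members with the largest fold change in each direction lay further down. The median absolute log2 fold change was 0.27 for ranks 1 to 10, 0.16 for ranks 11 to 50 and 0.24 for ranks 51 to 103. Gene model g12800, rank 80, had 938, 793 and 809 CPM in sexual and 2001, 1100 and 1552 CPM in asexual replicates 1 to 3. It had the lowest sexual mean of all 103 members, and its asexual values spread widely, over 1551 ± 451 CPM (SD, n = 3). The log2 fold change was 0.88 ± 0.19 (SE, adjusted p = 0.0121 by edgeR), and without sexual replicate 3 the adjusted p was 0.0671.

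The member ranked 18 had 1990, 1845 and 1906 CPM in sexual and 3553, 3048 and 2981 CPM in asexual replicates 1 to 3. This tight separation gave a log2 fold change of 0.75 ± 0.12 and the lowest adjusted p among the members (SE, adjusted p = 0.00187 by edgeR). The member ranked 73 rose from 944 ± 119 to 1550 ± 137 CPM (SD, n = 3), with a log2 fold change of 0.72 ± 0.12 (SE, adjusted p = 0.00352 by edgeR), and moved from place 100 in the sexual to place 58 in the asexual order. The member ranked 51 had 1155 to 1423 CPM in sexual and 1557 to 2357 CPM in asexual libraries, with a log2 fold change of 0.60 ± 0.16 (SE, adjusted p = 0.0292 by edgeR). Its call ended without sexual replicate 2 (adjusted p = 0.0510), sexual replicate 3 (0.141) or asexual replicate 1 (0.0924) in edgeR. The remaining higher members, ranked 34, 55, 67, 70, 76 and 94, had log2 fold changes of 0.44 to 0.58. Of the 15 alternative fits, rank 70 was called in 15, rank 55 in 14, rank 76 in 12, rank 67 in 10, rank 94 in 9 and rank 34 in 8.

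Gene model g12927, rank 17, was lower in asexual females by the largest fold among called members. It had 4489, 3943 and 2853 CPM in sexual and 1159, 2101 and 2267 CPM in asexual replicates 1 to 3, without overlap but with a wide spread in both populations. The log2 fold change was -1.02 ± 0.24 (SE, adjusted p = 0.0206 by edgeR), and the model went from place 10 in the sexual to place 43 in the asexual order. The call ended without sexual replicate 1 (adjusted p = 0.0608) or asexual replicate 2 (0.0516) in edgeR.

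Gene model g1531, rank 71, had 1724, 1461 and 1765 CPM in sexual and 782, 897 and 1141 CPM in asexual replicates 1 to 3. Its log2 fold change was -0.80 ± 0.15 (SE, adjusted p = 0.00583 by edgeR). Among the members it moved by 50 places, from 50 to 100, the widest move between the population orders. The member ranked 19 had 2943, 3078 and 3129 CPM in sexual and 1808, 2013 and 2103 CPM in asexual replicates 1 to 3, a log2 fold change of -0.62 ± 0.11 (SE, adjusted p = 0.00519 by edgeR). Both models stayed called in each of the 15 alternative fits.

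The other lower members were less secure. Rank 89 had 1127, 1715 and 1189 CPM in sexual and 905, 978 and 663 CPM in asexual replicates 1 to 3, with a log2 fold change of -0.66 ± 0.19 (SE, adjusted p = 0.0414 by edgeR). It was not called without sexual replicate 2 or 3 or without any asexual replicate, where edgeR adjusted p-values were 0.0665 to 0.0935. Rank 48 had 1734 to 2244 CPM in sexual and 1110 to 1598 CPM in asexual libraries, with a log2 fold change of -0.58 ± 0.16 (SE, adjusted p = 0.0363 by edgeR). It was not called without sexual replicate 2 or 3 or asexual replicate 2 or 3, where edgeR adjusted p-values were 0.0741 to 0.142. Rank 62 differed least among called members, with a log2 fold change of -0.38 ± 0.10 (SE, adjusted p = 0.0328 by edgeR). Leaving out any single library ended this call, with edgeR adjusted p-values of up to 0.125. Over all fits tried, 6 of the 19 members were called in each, 4 higher (ranks 6, 18, 70 and 73) and 2 lower (ranks 19 and 71) in asexual females.

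In reads, the called members shifted little of the library. The 12 higher members took 2.05% ± 0.0589 of the counts in sexual and 3.17% ± 0.230 in asexual libraries (SD, n = 3). The 7 lower members took 1.95% ± 0.160 in sexual and 1.24% ± 0.0578 in asexual libraries (SD, n = 3). These members were chosen by their calls in the same libraries, so the shares are a description.

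Pool-to-pool spread was above counting error for nearly all members. A member had at least 3502 counts in every library. Its counting error, as the root mean square over the 3 libraries of a population, was at most 1.34% of its level. The coefficient of variation between the 3 pools of a population, in percent of the mean, had a median of 9.96% in sexual and 10.5% in asexual libraries. It was above the counting error for 102 members in sexual and 101 members in asexual libraries. The asexual value was the larger for 56 members and the sexual value for 47, a difference that was not tested. The SD of log2 CPM within populations had a median of 0.16 over members, 0.12 over the 1896 tested models of 100 to 1000 CPM and 0.16 over the 11622 tested models with a count in every library. The last group includes weakly read models, whose median counting error was 6.09% against 0.774% in members.

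**Figure D4:**
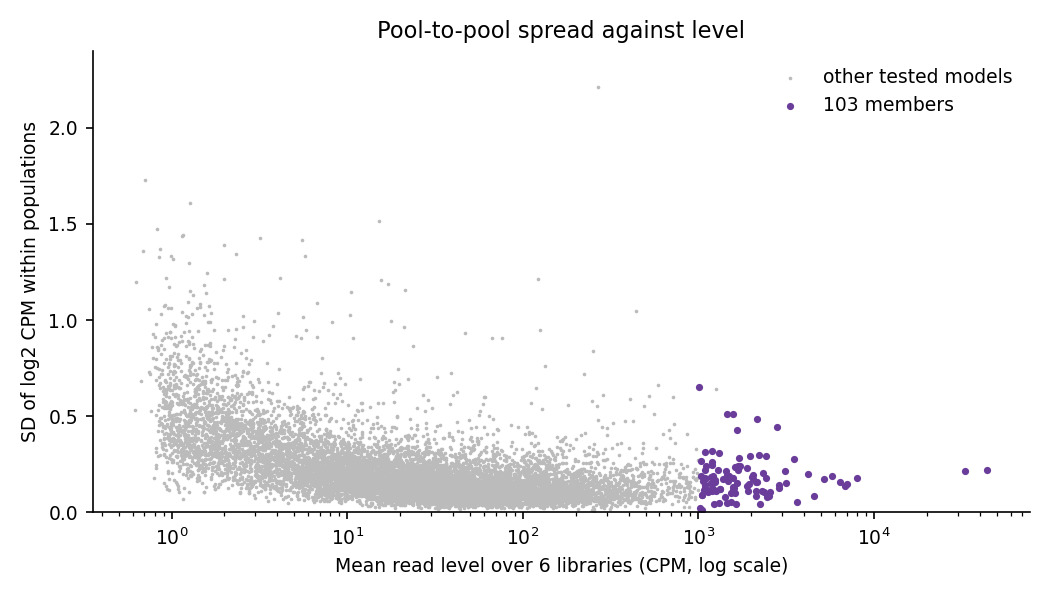
SD of log2 CPM within populations against the mean read level (CPM, log scale), for the 103 members (purple) and the other tested models with a count in every library (grey). Members range from 0.01 to 0.65 with a median of 0.16, and the grey points narrow from low levels toward 1000 CPM.

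A few members hardly varied. The member ranked 99 had 1046, 1060 and 1035 CPM in sexual and 1032, 1046 and 1029 CPM in asexual replicates 1 to 3. Its coefficients of variation of 1.19% and 0.858% were close to the counting errors of 0.912% and 0.972%. Rank 102 had 1050, 1038 and 1067 CPM in sexual and 968, 984 and 1000 CPM in asexual replicates 1 to 3, so that the populations did not overlap although the log2 fold change was only -0.09 ± 0.09 (SE, adjusted p = 0.578 by edgeR). Rank 49 had 1784 to 1800 CPM in sexual libraries, a coefficient of variation of 0.461%, and 1407 to 1513 CPM in asexual libraries. Its log2 fold change of -0.27 ± 0.10 was not called by edgeR (SE, adjusted p = 0.105 by edgeR) but was by DESeq2 (adjusted p = 0.0190). In all, 9 members varied by under 5% in both populations.

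The widest spread belonged to rank 103, with 1806, 868 and 1421 CPM in sexual and 378, 554 and 1056 CPM in asexual replicates 1 to 3. The populations overlapped, and the log2 fold change of -1.03 ± 0.35 was not called (SE, adjusted p = 0.0798 by edgeR). Its adjusted p was 0.0304 without sexual replicate 2 and 0.00447 without asexual replicate 3 in edgeR, and 0.00122 with no low-count filter. Sexual replicate 2 was its lowest sexual and asexual replicate 3 its highest asexual library, so leaving out either removes the overlap. Rank 103 was not called without sexual replicate 1 or 3 or asexual replicate 2. Rank 54 had 1615, 760 and 1316 CPM in sexual and 1926, 1337 and 2508 CPM in asexual replicates 1 to 3. It was not called, with a log2 fold change of 0.66 ± 0.27 (SE, adjusted p = 0.142 by edgeR), but it was by edgeR with no low-count filter (adjusted p = 0.0129). Rank 63 had 1857, 982 and 1683 CPM in sexual and 998, 1183 and 2008 CPM in asexual replicates 1 to 3, a log2 fold change of -0.10 ± 0.27 (SE, adjusted p = 0.858 by edgeR).

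These variable members moved together. Coefficients of variation were above 20% in both populations for 6 members, ranked 17, 29, 46, 54, 63 and 103. In 5 of them, all but rank 17, sexual replicate 1 was the highest and sexual replicate 2 the lowest sexual library, and asexual replicate 3 was the highest asexual library. Rank 29, for example, had 2878, 1523 and 2369 CPM in sexual and 1435, 1903 and 2849 CPM in asexual replicates 1 to 3. The members most like rank 1 over the 6 libraries, by Pearson's r of log2 CPM, were ranks 24, 46 and 63, with r of 0.96, 0.92 and 0.88. Rank 24 was not among the 6 variable members. At the other end, ranks 90 and 23 each had an r of -0.90 with rank 1. Rank 2 had an r of 0.61 with rank 1. These are descriptions over 6 libraries that share their totals.

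The same axis ran through the group as a whole. Deviations of log2 CPM from the population mean correlated across the 103 members. Pearson's r was 0.67 for sexual replicate 1 with asexual replicate 3, and 0.53 for sexual replicate 2 with asexual replicate 1. For sexual replicate 2 with asexual replicate 3 it was -0.80, the strongest of the 9 pairs of pools. Over 11519 other tested models the same 3 pairs gave 0.28, 0.28 and -0.29. The remaining pairs ranged from -0.44 to 0.42 in members and from -0.22 to 0.08 in the other models. For sexual replicate 2 with asexual replicate 2, for example, r was 0.42 in members and 0.01 in the other models. Counting error can weaken such correlations. Its median was 0.774% in members and 6.09% over all tested models with a count in every library. Members and other models were not compared at a like read level. The 3 deviations of a population add up to 0, so the 9 correlations depend on each other, and members share the library totals. Sexual replicate 2 was the highest sexual library for 50 members, and in 2 of these asexual replicate 3 was the highest asexual library. Sexual replicate 1 was the highest for 34 members, and in 19 of these asexual replicate 3 was the highest. What the pools had in common was not tested, and the labels give no batch that separates them.

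**Figure D5:**
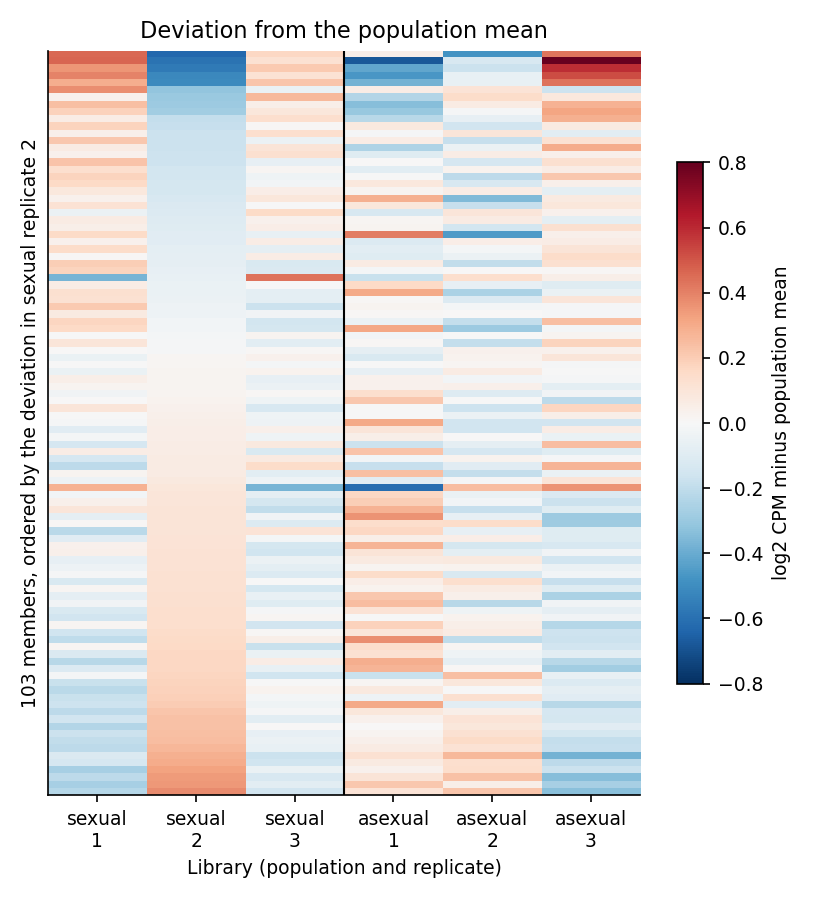
Deviation of log2 CPM from the mean of its population, as colour, for the 103 members (lines, ordered by the deviation in sexual replicate 2) in the 6 libraries. Members that are low in sexual replicate 2, at the top, tend to be high in sexual replicate 1 and asexual replicate 3, and members that are high in it tend to be low in asexual replicate 3 (r = -0.80).

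Some members stood beside each other in the numbering of the gene models. Members numbered up to 2000 were 20 and members numbered from 5501 on were 83, or 1.00% and 0.572% of the models in those ranges. Consecutive numbers were held by 5 pairs, made of 9 members, and each of these pairs also lay in adjacent lines of the table. A further 4 pairs were 2 numbers apart, and of these the pair of ranks 89 and 68 lay 386 lines apart in the table. In none of these 9 pairs were both members called, and in 6 of them 1 was. With 18.4% of all members called, pairs with both called would be rare in any case, so their absence says nothing about neighbours. The number of pairs with 1 called member was not tested. Whether neighbouring numbers are neighbouring genes, copies or pieces of a gene is not stated, and reads shared by such models could not be separated.

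The members ranked 8, 52 and 96 carry 3 consecutive numbers. Rank 8 was lower in asexual females by a log2 fold change of -0.54 ± 0.14 (SE), as given above. Rank 52 had 1594 ± 163 CPM in sexual and 1597 ± 121 CPM in asexual libraries, and rank 96 had 1070 ± 132 and 1055 ± 108 CPM (SD, n = 3), with log2 fold changes of 0.01 ± 0.12 and -0.02 ± 0.13 (SE). Ranks 19 and 57 are a consecutive pair with log2 fold changes of -0.62 ± 0.11 and -0.19 ± 0.10 (SE), of which the second was not called (edgeR adjusted p = 0.247). Ranks 73 and 54 are another, with similar log2 fold changes of 0.72 ± 0.12 and 0.66 ± 0.27 (SE) but a spread of log2 CPM within populations of 0.16 in the former and 0.51 in the latter. Ranks 4 and 33, also consecutive, were both uncalled, at -0.17 ± 0.14 and 0.14 ± 0.13 (SE). Differences within pairs were not tested.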

How the data were processed

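RNA of 6 head pools was sequenced, 3 per population. What the authors deposited is a single table of unnormalized read counts for each gene model. Trimmomatic, HISAT2 and DESeq2 are named, without roles, per the submitters' processing notes. The genome build, annotation, read counting tool and its strandedness were not given in the sources used here, so overlapping and antisense models may share reads. Libraries were assigned by title, and table columns by the ends of the source names; 0 columns were left without a sample. Of the gene models, 0 matched the RefSeq table (14011 genes).

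CPM are counts over column totals. All libraries entered a quasi-likelihood F test in edgeR 4.0.16 (with limma 3.58.1 under R 4.3.3), using TMM factors (0.984 to 1.01), default filterByExpr, population as the only term and Benjamini-Hochberg adjustment across 11700 models. SE was obtained as log2 fold change over the root of F. A single count is 0.0762 to 0.108 CPM. Counting errors cover counting alone, because PCR copies cannot be recognised in reads that carry no molecular identifier. Alternatives were other scalings and filters, a replicate block, robust dispersions, limma-voom, DESeq2 1.42.0, an adjusted p under 0.01, left-out libraries and other membership cutoffs. Other values used Python 3.11.15 and pandas 2.3.3.

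Members and tests were chosen with earlier results of these data known. Described one by one were ranks 1 to 10, the 5 called members per direction with the largest fold change, the 3 widest and 3 narrowest in spread, the 3 with the largest rank difference between populations, the 2 just inside and 2 just outside the cutoff and the 3 most like rank 1. Identifiers are given for ranks 1 to 3 and for 2 called members per direction. Other members named by rank (23, 29, 34, 55, 62, 67, 70, 76, 90, 94, and those in number pairs) were chosen after their values were seen.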

Additional observations from a re-analysis of the deposited data

How the results depend on the processing

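With RLE factors, library totals only, TMM over models that are not members, limma-voom or robust dispersions the same 19 members were called. These were 18.4% of members, against 12.8% to 13.1% of all models. No called member changed direction in any of the 15 alternative fits. No low-count filter gave 24 calls, or 23.3% of members against 10.9% of all models tested. The filter of 5 CPM in 3 libraries gave 18, or 17.5% against 12.4%. DESeq2 gave 28 (16 higher and 12 lower), or 27.2% against 13.1%. In that order, 19, 18 and 19 of the main calls were among them. Over 11519 other tested models, same-numbered pools 1, 2 and 3 had correlations of deviations of -0.22, 0.01 and 0.03. Over the 103 members these were -0.38, 0.42 and 0.42. The labels do not say whether such pools share more than a number. With the replicate block 15 members (14.6%) and 1165 models (9.96%) were called, 14 of the members shared with the main calls. Rank 54 was added (log2 fold change 0.67, adjusted p = 0.0301 by edgeR), while ranks 34, 48, 62, 67 and 94 were not called. Leaving out each library gave 7 to 15 called members, 4 to 11 higher and 2 to 5 lower, and 836 to 1594 called models, and 6 of the 19 members were called in all of these. At an adjusted p under 0.01, 7 of 103 members (5 higher, 2 lower) and 706 of 11700 models were called. With members from 500 CPM, 47 of 270 members were called (27 higher, 20 lower) and members held 39.4% of sexual and 40.1% of asexual counts. With members from 2000 CPM, 7 of 36 members were called (4 higher, 3 lower) and the shares of counts were 18.8% and 19.1%. For both cutoffs the share called over all tested models was 12.9%. Without the most abundant model the shares of counts were 23.6% and 23.8%. The number of members was 103 to 105 with a library left out, and median coefficients of variation were 6.90% to 10.3% in sexual and 7.65% to 10.7% in asexual pools. The median log2 fold change of members was -0.01 to 0.03 across scalings and left-out libraries. Among uncalled members, up to 14 changed sign in a fit. Counting error within a population was at most 1.34% of a member's level.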
